A study of Rattus norvegicus with 4 samples.

Results

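The heat shock proteins and their DnaJ partners were followed in synovium, the tissue that lines the joint, of rats with osteoarthritis on the day after an injection of human mesenchymal stem cells. Members were chosen by symbol: the HSP70, HSP90, HSP110, HSP60, HSP10 and small heat shock protein genes (Hspa, Hsp90, Hsph, Hspd, Hspe and Hspb with a number), the DnaJ genes (Dnaja, Dnajb and Dnajc with a number), Hsf1, Bag3 and Sdf2l1. The rule matched 69 of 17899 rat genes, and 64 of them passed the filter of 1 TPM or more in 2 or more libraries, as did 13371 genes in all. Of the 69, 40 were placed in the cytosol (a group that here also takes in nuclear and vesicle-bound members, Hsf1 and Bag3), 16 in the endoplasmic reticulum and 10 in mitochondria, from general knowledge of the proteins, and 3 were left apart.

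There were 4 bulk RNA-seq libraries: 1 of synovium injected with human AdMSCs (AdMSC 1), 1 injected with human SyMSCs (SyMSC 1), and 2 injected with PBS, a salt buffer (PBS 1 and PBS 2). All 4 came from osteoarthritic joints. The labels do not spell out the cell abbreviations, commonly read as adipose-derived and synovium-derived stem cells, and the sources used here do not give strain, age, how osteoarthritis was induced or how long after PBS the tissue was taken. Titles join PBS 1 with AdMSC 1 by the word Ad and PBS 2 with SyMSC 1 by the word Sy. The titles of both PBS libraries also hold the word mix, which is not explained. Whether each library is a separate animal is not stated, so a p-value here measures only the spread between these libraries, which may be technical, and the injected pair joins different cell sources. Levels are TPM, the length-normalised share of a library's transcripts, so genes can be compared by level, but the read depth is unknown. A log2 change is on the log2(TPM + 1) scale, injected minus PBS, which understates the change of low genes, and n = 2 libraries stand on each side. Whether reads of the injected human cells were kept out of the rat gene values is not stated, and any share of them in the values of conserved genes in the injected libraries was not tested.

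Heat shock proteins are chaperones that keep other proteins folded. HSP70 proteins bind and release unfolded stretches in a cycle driven by ATP. DnaJ proteins bring them clients and start the cycle, and HSP110 proteins exchange the nucleotide. HSP90 finishes the folding of kinases, receptors and other signalling proteins, HSP60 with its lid HSP10 encloses proteins in the mitochondrial matrix, and small heat shock proteins hold unfolding proteins without using ATP. In the cytosol the factor HSF1 switches on these genes when unfolded protein builds up, and in the endoplasmic reticulum, where secreted and membrane proteins such as synovial matrix are folded, the sensors ATF6, IRE1 and PERK do so in what is called the unfolded protein response.

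The tissue carried genes of synovial fibroblasts in every library, among them Prg4, which encodes lubricin, at 4192 and 2448 TPM in the injected libraries and 3930.3 and 3765 TPM in the PBS libraries. In 10 fibroblast genes the summed level was 17011 and 11569 TPM in the injected libraries against 38603 and 31453 TPM in the PBS libraries, and 8 of the 10 were called lower. Monocyte and macrophage genes went the other way, with 8 of 9 called higher and a sum of 26014 and 35384 TPM in the injected libraries against 9807 and 11105 TPM in the PBS libraries. None of the marker genes examined was listed at 0 in any library. In bulk tissue, fewer cells of a type and less RNA per cell cannot be told apart. This holds for every difference below.

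Several large ATP-driven chaperones of all 3 compartments were higher after injection of cells, and the small heat shock proteins that could be tested were lower. With limma, at an adjusted p under 0.05, 19 members were called higher and 15 lower among the 64 tested, and 30 did not pass. That is 53.1% called, against 48.4% of all genes tested, with 29.7% higher against 23.7% of all genes and 23.4% lower against 24.7%. These shares lie near the background, so the count over all members does not set them apart, and their median change (0.06) and mean change (-0.05) differ in sign. Of the 64, 32 had both injected libraries above both PBS libraries, as did 39.5% of all genes, and 20 had both below, as did 39.4% of all genes. Without PBS 2 the number called lower was 9 in place of 15. Whichever single library was omitted, 13 of the calls for a rise and 8 of those for a fall held. These were Sdf2l1, Hspd1, Hspa9, Dnajb11, Hsph1, Dnajc16, Hsp90b1, Hsp90aa1, Hspa5, Hspa4, Dnajc25, Dnajc13 and Dnajc5 on the higher side, and Hspb7, Hspb2, Hspb6, Hspa12b, Hspb1, Hspa2, Dnajb4 and Dnajb5 on the lower side.

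**Figure D1:**
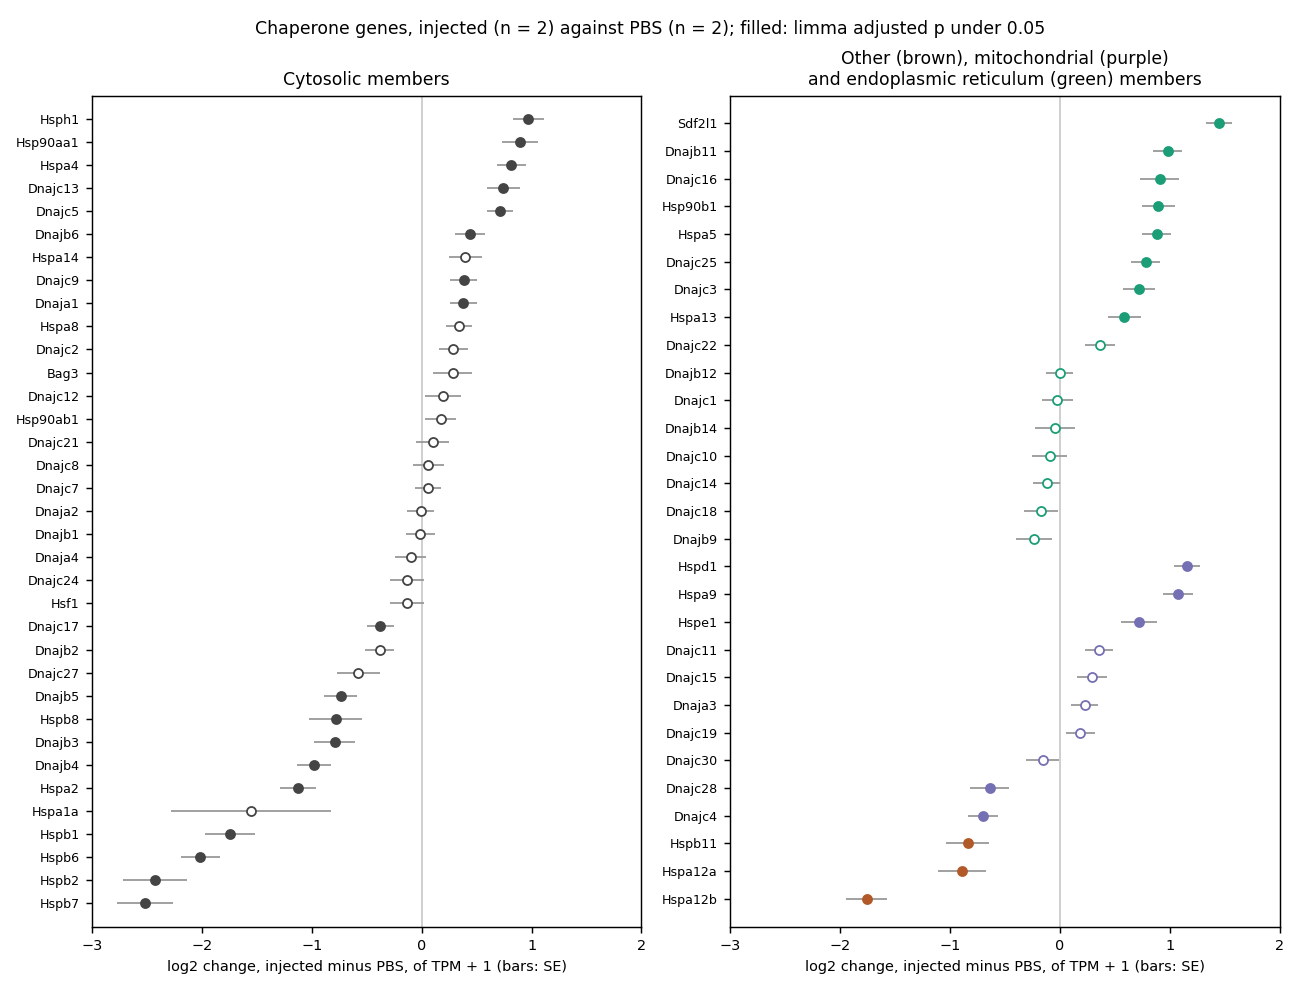
Log2 change, injected minus PBS, of log2(TPM + 1) for the 64 tested members, ordered within each compartment, with bars for the standard error and filled points for a limma adjusted p under 0.05. The 8 filled endoplasmic reticulum members all lie above 0, and the small heat shock proteins Hspb7, Hspb2, Hspb6 and Hspb1 lie at the foot of the cytosolic panel.

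In the sums of 7 families, HSP70, HSP90, HSP110, HSP60 with HSP10 and the DnaJ classes A, B and C, both injected libraries lay above both PBS libraries, and in that of the small heat shock proteins both lay below. These sums were not tested, and a sum can hide members that went the other way. Of 9 tested HSP70 genes 3 were called higher, 3 lower and 3 did not pass (33.3% higher and 33.3% lower). Of 10 tested DnaJ B genes 2 were called higher, 3 lower and 5 did not pass (20% and 30%). Their median change was -0.14. Of all genes, 23.7% were called higher and 24.7% lower, and 39.5% had both injected libraries above both PBS libraries. The small heat shock proteins together stood at 223 TPM in AdMSC 1, 187 TPM in SyMSC 1, 566 TPM in PBS 1 and 743 TPM in PBS 2, with both injected libraries far below both PBS libraries. The HSP110 genes summed to 86.8 TPM in AdMSC 1, 78.6 TPM in SyMSC 1, 46.9 TPM in PBS 1 and 42.1 TPM in PBS 2. HSP60 and HSP10 together stood at 200.4 TPM in AdMSC 1, 211 TPM in SyMSC 1, 101 TPM in PBS 1 and 119 TPM in PBS 2. In ratio both of these families differed more between the groups than HSP70 or HSP90. The HSP70 genes summed to 2535 TPM in AdMSC 1, 2327 TPM in SyMSC 1, 1739 TPM in PBS 1 and 1781 TPM in PBS 2. The HSP90 genes summed to 1675 TPM in AdMSC 1, 1371 TPM in SyMSC 1, 1109 TPM in PBS 1 and 1072 TPM in PBS 2. The 41 DnaJ genes together stood at 1492 TPM in AdMSC 1, 1426 TPM in SyMSC 1, 1299.7 TPM in PBS 1 and 1291 TPM in PBS 2. Of the 39 tested, 9 were called higher, 6 lower and 24 did not pass, with a median change of -0.003. That is 23.1% higher and 15.4% lower, against 23.7% and 24.7% of all genes. All members together made up 0.64% and 0.576% of the TPM of the injected libraries and 0.497% and 0.516% of the PBS libraries.

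**Figure D2:**
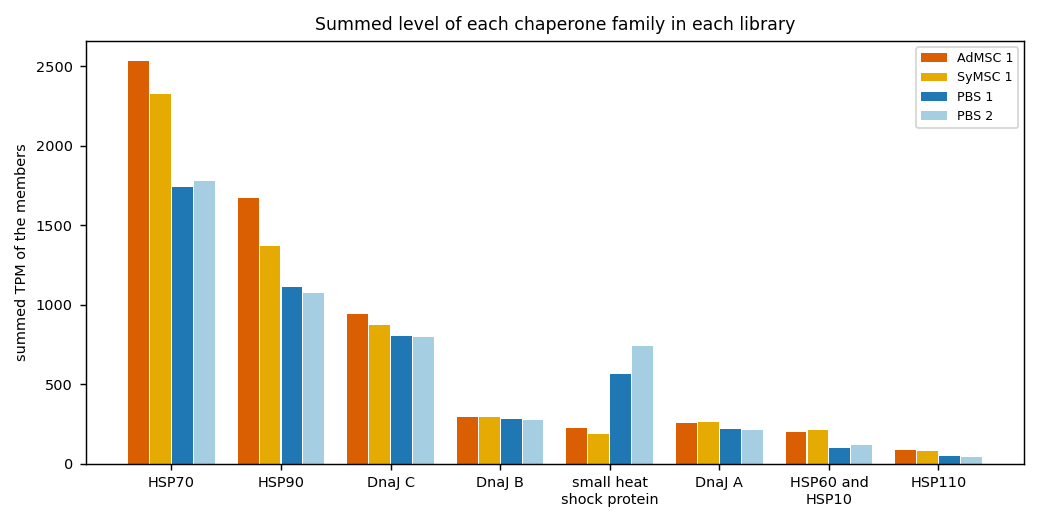
Summed TPM of the members of 8 chaperone families, 1 bar per library, with the axis starting at 0. The bars of 7 families are taller in AdMSC 1 and SyMSC 1 than in PBS 1 and PBS 2, and those of the small heat shock proteins are taller in PBS 1 and PBS 2.

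In the endoplasmic reticulum 8 of 16 members were called higher, 0 lower and 8 did not pass, that is 50% higher and 0% lower, against 23.7% and 24.7% of all genes tested. At an unadjusted p under 0.05 none of the 16 was lower either. Their median change was 0.47, against 0.0009 over all tested genes. The 8 called higher were Hspa5, Hsp90b1, Sdf2l1, Dnajb11, Dnajc3, Dnajc16, Dnajc25 and Hspa13. Among the 12 DnaJ genes of this compartment alone, 4 were called higher (33.3%) and 0 lower, with a median change of -0.01. Hspa5 encodes BiP, the HSP70 of this compartment and the brake on the stress sensors. It stood at 717 TPM in AdMSC 1, 638 TPM in SyMSC 1, 385 TPM in PBS 1 and 351 TPM in PBS 2. Both injected libraries lay above both PBS libraries by a like ratio in each pair (log2 change 0.88, SE 0.13, limma adjusted p = 0.00305). Hsp90b1, the HSP90 of this compartment, which folds integrins and Toll-like receptors, stood at 532 TPM in AdMSC 1, 442 TPM in SyMSC 1, 279.6 TPM in PBS 1 and 242 TPM in PBS 2 (log2 change 0.90, SE 0.15, limma adjusted p = 0.00464). Its groups were likewise apart, with the AdMSC library the higher of the injected pair.

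The largest rise of any member was that of Sdf2l1, a small partner that keeps BiP clients from clumping. It stood at 94.2 TPM in AdMSC 1, 89.5 TPM in SyMSC 1, 33.1 TPM in PBS 1 and 32.9 TPM in PBS 2 (log2 change 1.45, SE 0.12, limma adjusted p = 0.000511), with the PBS libraries almost equal. Dnajb11, the soluble DnaJ partner with which Sdf2l1 forms a complex, stood at 74.2 TPM in AdMSC 1, 68.8 TPM in SyMSC 1, 38 TPM in PBS 1 and 33.6 TPM in PBS 2 (log2 change 0.98, SE 0.13, limma adjusted p = 0.00211). Set against Hspa5, its level kept a ratio of 0.103, 0.108, 0.0987 and 0.0959 in AdMSC 1, SyMSC 1, PBS 1 and PBS 2. Dnajc3 encodes p58IPK, a BiP partner that is also known as an inhibitor of the stress kinase PERK. It stood at 118 TPM in AdMSC 1, 112 TPM in SyMSC 1, 76.9 TPM in PBS 1 and 62.5 TPM in PBS 2 (log2 change 0.72, SE 0.14, limma adjusted p = 0.00846). The call of Dnajc3 ended without PBS 2 (limma adjusted p = 0.0594). The membrane-bound DnaJ genes Dnajc16 and Dnajc25 were lower in level, at 8.05 and 8.16 TPM in the injected libraries and 4.37 and 3.39 TPM in the PBS libraries for Dnajc16 and 22.4 and 21.7 TPM in the injected libraries and 13 and 11.9 TPM in the PBS libraries for Dnajc25, and their changes were 0.91 and 0.78 on the log2 scale (limma adjusted p = 0.00815 and 0.00471). Hspa13, a small HSP70-like protein, changed by 0.59 (limma adjusted p = 0.0212), a call that ended without AdMSC 1 (0.0691), SyMSC 1 (0.058) or PBS 2 (0.124).

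Dnajb9, a DnaJ protein induced through IRE1 and XBP1 that returns BiP to the sensor, was not called. It stood at 13.4 TPM in AdMSC 1, 10.6 TPM in SyMSC 1, 13.7 TPM in PBS 1 and 14.7 TPM in PBS 2, with both injected libraries below both PBS libraries by less than the test could call (log2 change -0.23, 95% interval -0.63 to 0.16, limma adjusted p = 0.275). Dnajc10, which has disulfide reductase activity, stood at 39.2 and 30.9 TPM in the injected libraries and 39.8 and 34.8 TPM in the PBS libraries, with overlapping groups. Apart from Dnajb9 and Dnajc10 the members that did not pass were 6 membrane DnaJ genes (Dnajb12, Dnajb14, Dnajc1, Dnajc14, Dnajc18 and Dnajc22), whose changes ran from -0.18 (Dnajc18) to 0.36 (Dnajc22). With the libraries rescaled by median ratios (RLE scaling) Dnajc22 was called higher (limma adjusted p = 0.0381).

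The promoters of these genes are shown because the classical response element of this compartment can be read in them. The endoplasmic reticulum stress element is CCAAT and CCACG with 9 free bases between them, the letters that ATF6 and the factor NF-Y read together. Its second form is ATTGG and CCACG 1 base apart. Windows of 250 bases before to 50 bases after the annotated start were taken from RefSeq (build GRCr8) and read on both strands. A window was at hand for 55 of the 69 members, 15 of them of the endoplasmic reticulum. The first form was found in 3 members, Hspa5, Hsp90b1 and Dnajc3, against 0.0657% of all 33469 windows, and the second in Dnajb11, against 0.0508%. Among the 11861 windows of tested genes the shares were 0.143% and 0.101%. All 4 were among the genes called higher. So were 18 of the 50 tested members with a window, and 8 of the 16 members of this compartment. Any bearing of the element on the calls was not tested. A match describes letters and not a bound site, and a window without it says nothing on the factor. Capitals mark the matched letters, 5′ to 3′ on the gene's strand. The Hspa5 stretch is chr3:38452958-38453006 (+ strand), that of Dnajc3 chr15:102432519-102432567 (+ strand), those of Hsp90b1 chr7:23012436-23012484 (- strand) and chr7:23012332-23012380 (- strand), the latter read on the opposite strand, and that of Dnajb11 chr11:91672785-91672825 (- strand).
Hspa5: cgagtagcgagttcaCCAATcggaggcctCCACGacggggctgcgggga
Dnajc3: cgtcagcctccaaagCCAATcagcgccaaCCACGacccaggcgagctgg
Hsp90b1, farther from the start: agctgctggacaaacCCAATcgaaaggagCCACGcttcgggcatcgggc
Hsp90b1, nearer to the start: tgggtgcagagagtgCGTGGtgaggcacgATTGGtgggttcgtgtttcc
Dnajb11: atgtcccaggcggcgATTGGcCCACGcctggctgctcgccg

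Among the sensors and factors of the unfolded protein response, 4 of 15 were called higher, 0 lower and 11 did not pass, with a median change of 0.24. The 26.7% called higher lie near the 23.7% of all genes. At an unadjusted p under 0.05, 1 of the 15 was lower, Eif2ak3, which encodes PERK (11.2 and 10.7 TPM in the injected libraries and 17.5 and 13.5 TPM in the PBS libraries, limma adjusted p = 0.0647, and 0.0482 without PBS 2). Atf6, the sensor whose freed fragment acts on the element above, stood at 34.7 TPM in AdMSC 1, 36 TPM in SyMSC 1, 14.2 TPM in PBS 1 and 14.1 TPM in PBS 2 (log2 change 1.26, SE 0.13, limma adjusted p = 0.000846), so that its injected and PBS values each lay close together and far apart from each other. The pseudokinase gene Trib3 changed by 2.11 (limma adjusted p = 0.0114), Eif2s1, which encodes the translation factor that PERK phosphorylates, by 0.64 (0.0097), and Atf6b, the relative of Atf6, by 0.42 (0.0277). Calls ended for Trib3 without PBS 2 (0.0724), for Eif2s1 without PBS 2 (0.056) and for Atf6b without SyMSC 1 (0.0802), PBS 1 (0.127) or PBS 2 (0.144), adjusted p in brackets. Atf4, the main factor of the PERK branch, stood at 388 and 468 TPM in the injected libraries and 442 and 448 TPM in the PBS libraries, and Ddit3, its target CHOP, at 66.7 TPM in AdMSC 1, 188 TPM in SyMSC 1, 48.4 TPM in PBS 1 and 45.9 TPM in PBS 2. The Ddit3 value of SyMSC 1 stood above the other 3, and the gene was not called (limma adjusted p = 0.162). It was called higher without AdMSC 1 (log2 change 1.97, 0.000601) or SyMSC 1 (0.49, 0.0442). Xbp1 stood at 316 and 269 TPM in the injected libraries and 269 and 224 TPM in the PBS libraries (limma adjusted p = 0.229). Splicing of Xbp1 and cleavage of Atf6 protein, through which these branches are switched, are not seen in gene-level TPM.

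Of 36 other folding and degradation genes of the endoplasmic reticulum, 14 were called higher, 6 lower and 16 did not pass (median change 0.33), or 38.9% higher and 16.7% lower, against 23.7% and 24.7% of all genes. The oxidase gene Ero1a, which drives disulfide formation and is also known to respond to low oxygen, stood at 56.2 TPM in AdMSC 1, 70.7 TPM in SyMSC 1, 11 TPM in PBS 1 and 9.14 TPM in PBS 2 (log2 change 2.54, SE 0.17, limma adjusted p = 0.000323), a rise larger than that of any member. Hyou1, the HSP110 of this compartment, stood at 67.9 and 52.9 TPM in the injected libraries and 27.9 and 26.7 TPM in the PBS libraries (log2 change 1.11, limma adjusted p = 0.00255). Uggt1, the folding sensor for glycoproteins, changed by 1.02 (limma adjusted p = 0.00318). Among those lower was Cdnf, a secreted neurotrophic factor related to Manf, at 0.72 and 0.56 TPM in the injected libraries and 1.58 and 3.44 TPM in the PBS libraries (log2 change -1.05, limma adjusted p = 0.0251, no longer called without AdMSC 1 (0.0736) or SyMSC 1 (0.105)). Cdnf too passed the filter through the PBS libraries alone, so its call follows in part from the filter, and with PBS 1 or PBS 2 left out it fell under the filter.

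In mitochondria the matrix chaperones HSP60, HSP10 and HSP70 were higher. Of 10 members 3 were called higher, Hspd1, Hspa9 and Hspe1, 2 lower, Dnajc4 and Dnajc28, and 5 did not pass, with a median change of 0.26. These shares, 30% higher and 20% lower, lie near the 23.7% and 24.7% of all genes. Hspd1, which encodes HSP60, stood at 94 TPM in AdMSC 1, 86.9 TPM in SyMSC 1, 39.5 TPM in PBS 1 and 40.5 TPM in PBS 2 (log2 change 1.16, SE 0.12, limma adjusted p = 0.00101). Hspa9, the mitochondrial HSP70 mortalin, which also pulls proteins in through the inner membrane, stood at 85.5 TPM in AdMSC 1, 76.2 TPM in SyMSC 1, 40.1 TPM in PBS 1 and 35.6 TPM in PBS 2 (log2 change 1.07, SE 0.13, limma adjusted p = 0.00174). In both genes the injected values were more than 2 times the PBS values of the same title word, and the groups were far apart. Hspe1, the lid HSP10, stood at 106 TPM in AdMSC 1, 125 TPM in SyMSC 1, 61.5 TPM in PBS 1 and 78.8 TPM in PBS 2 (log2 change 0.72, SE 0.17, limma adjusted p = 0.0142). Its PBS libraries differed by 0.35 on the log2 scale, and the call ended without SyMSC 1 (0.054) or PBS 1 (0.0811), adjusted p in brackets.

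The 7 mitochondrial DnaJ genes summed to 297 TPM in AdMSC 1, 279 TPM in SyMSC 1, 273 TPM in PBS 1 and 281 TPM in PBS 2, and 0 of them were called higher. At an unadjusted p under 0.05 Dnajc11, a protein of the inner membrane organising complexes, was higher (28.5 and 26.3 TPM in the injected libraries and 21.2 and 21.1 TPM in the PBS libraries, limma adjusted p = 0.0583), and RLE scaling called it (0.0287). Dnajc4 stood at 31.2 TPM in AdMSC 1, 29.4 TPM in SyMSC 1, 45.9 TPM in PBS 1 and 54.2 TPM in PBS 2 (log2 change -0.70, SE 0.14, limma adjusted p = 0.00796), a call that ended without PBS 2 (0.0523). Dnajc28 lay near the filter, at 0.77 and 0.9 TPM in the injected libraries and 2.01 and 1.72 TPM in the PBS libraries, and passed it through the PBS libraries alone, so its call (limma adjusted p = 0.0283) follows in part from the filter. It ended without AdMSC 1 (0.132) or SyMSC 1 (0.0942), and with PBS 1 or PBS 2 left out the gene fell under the filter. Dnaja3, which serves mortalin in the matrix, and the import-motor genes Dnajc15 and Dnajc19 had both injected libraries above both PBS libraries, with changes of 0.23, 0.29 and 0.18 that did not pass (limma adjusted p = 0.172, 0.128 and 0.279).

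Hspd1 and Hspe1 are read away from each other from a shared stretch of chromosome 9, with 289 bases between their starts, and their windows share 211 bases. Heat shock elements, the letters read by HSF1, alternate GAA and TTC with 2 free bases between (GAANNTTC or TTCNNGAA). A run of 4 such units lies in the shared stretch, so it is a single run shown here from both sides, close to the start of Hspe1 and farther from that of Hspd1. The Hspd1 stretch is chr9:64084247-64084287 (- strand), cut at the edge of its window, and the Hspe1 stretch is chr9:64084247-64084294 (+ strand), both in GRCr8.
Hspd1: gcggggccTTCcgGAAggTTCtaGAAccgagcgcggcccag
Hspe1: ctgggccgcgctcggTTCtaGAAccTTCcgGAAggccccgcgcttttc

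Of 16 other mitochondrial folding and protease genes 6 were called higher, 1 lower and 9 did not pass (median change 0.23), or 37.5% higher and 6.25% lower, against 23.7% and 24.7% of all genes. Yme1l1, a protease of the inner membrane, stood at 46.5 TPM in AdMSC 1, 46.6 TPM in SyMSC 1, 21.4 TPM in PBS 1 and 20.7 TPM in PBS 2 (log2 change 1.11, SE 0.12, limma adjusted p = 0.00112), with each pair of values almost equal. The matrix protease gene Lonp1 changed by 0.55 and the import channel gene Timm23 by 0.50 (limma adjusted p = 0.0115 and 0.0251). Calls ended for Lonp1 without PBS 1 (0.0595) or PBS 2 (0.0626) and for Timm23 without AdMSC 1 (0.0797), PBS 1 (0.135) or PBS 2 (0.0815), adjusted p in brackets. Atf5, the transcription factor tied to the mitochondrial unfolded protein response, was the gene called lower, at 61.2 TPM in AdMSC 1, 48.1 TPM in SyMSC 1, 127 TPM in PBS 1 and 152 TPM in PBS 2 (log2 change -1.34, SE 0.17, limma adjusted p = 0.00177).

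Of 35 cytosolic members tested, 8 were called higher, 10 lower and 17 did not pass, with a median change of -0.01. These shares, 22.9% higher and 28.6% lower, lie near the 23.7% and 24.7% of all genes. Those higher were Hsph1, Hsp90aa1, Hspa4, Dnajc13, Dnajc5, Dnajb6, Dnajc9 and Dnaja1. Hsph1, an HSP110 that resets HSP70 and helps dissolve aggregates, stood at 35.9 TPM in AdMSC 1, 30.8 TPM in SyMSC 1, 16.9 TPM in PBS 1 and 16.1 TPM in PBS 2 (log2 change 0.97, SE 0.14, limma adjusted p = 0.00269). Hspa4, another HSP110 of the cytosol, stood at 50.6 TPM in AdMSC 1, 47.5 TPM in SyMSC 1, 29.2 TPM in PBS 1 and 25.7 TPM in PBS 2 (log2 change 0.82, SE 0.13, limma adjusted p = 0.00393). Hsp90aa1, the stress-inducible HSP90 of the cytosol, stood at 273 TPM in AdMSC 1, 216 TPM in SyMSC 1, 141 TPM in PBS 1 and 120.2 TPM in PBS 2 (log2 change 0.89, SE 0.16, limma adjusted p = 0.00636). In all 3 genes both injected libraries stood above both PBS libraries.

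The abundant constitutive chaperones of the cytosol were not called. Hsp90ab1, the constitutive HSP90, stood at 871 TPM in AdMSC 1, 713 TPM in SyMSC 1, 688 TPM in PBS 1 and 710.1 TPM in PBS 2, with SyMSC 1 almost level with PBS 2 (log2 change 0.17, 95% interval -0.17 to 0.52, limma adjusted p = 0.35). Hspa8, the constitutive HSP70 and the most abundant member, stood at 1672 TPM in AdMSC 1, 1557 TPM in SyMSC 1, 1242 TPM in PBS 1 and 1309 TPM in PBS 2. Its groups did not overlap, yet it did not pass (log2 change 0.34, 95% interval 0.04 to 0.64, limma adjusted p = 0.0604) except under RLE scaling (0.0381). Hspa8, Hspd1, Hspe1, Hsp90ab1 and their relatives have processed copies elsewhere in mammalian genomes, which can draw off or add reads, so their levels are uncertain to that degree.

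Hspa1a, Dnajb1 and Bag3, which heat shock is known to induce strongly, were not called. Hspa1a, the strongly heat-inducible HSP70, stood at 2.39 TPM in AdMSC 1, 4.38 TPM in SyMSC 1, 5.72 TPM in PBS 1 and 22.3 TPM in PBS 2. PBS 2 stood far above the rest, and the gene was not called (log2 change -1.55, SE 0.73, limma adjusted p = 0.165). Without PBS 1 it was called lower (-2.45, limma adjusted p = 0.00145), a comparison with PBS 2 alone, and with the title word as a block it was called lower at the same fold (0.0218). Hspa1b, its near-identical neighbour, has no row of its own here, so reads of both may be held in this row. Dnajb1, the inducible DnaJ partner of HSP70, stood at 44.6 TPM in AdMSC 1, 44.9 TPM in SyMSC 1, 42 TPM in PBS 1 and 48.5 TPM in PBS 2 (95% interval -0.33 to 0.31, limma adjusted p = 0.946), with overlapping groups. Bag3, which links HSP70 and small heat shock proteins to autophagy, stood at 49.7 TPM in AdMSC 1, 35.8 TPM in SyMSC 1, 35.2 TPM in PBS 1 and 33.7 TPM in PBS 2, highest in AdMSC 1, and was not called (limma adjusted p = 0.228) unless SyMSC 1 was left out (0.0416). Hsf1 itself stood at 28.1 TPM in AdMSC 1, 21.8 TPM in SyMSC 1, 27.4 TPM in PBS 1 and 27.2 TPM in PBS 2 (limma adjusted p = 0.507). Of 9 tested genes in a list of other heat shock factors and targets, 1 was called higher (Hmox1, below), 3 lower (Cryab, Hsf4 and P4ha2) and 5 did not pass, with a median change of -0.26 (11.1% higher and 33.3% lower, against 23.7% and 24.7% of all genes). Hsf2 stood at 10.2 and 7.54 TPM in the injected libraries and 12.3 and 10.5 TPM in the PBS libraries (limma adjusted p = 0.19), while Hsf4, known from the lens, was called lower at 5.37 and 4.55 TPM in the injected libraries and 14.2 and 15.8 TPM in the PBS libraries (log2 change -1.42, limma adjusted p = 0.00124). P4ha2, a collagen prolyl hydroxylase subunit, stood at 39.6 and 35.2 TPM in the injected libraries and 64.2 and 67.3 TPM in the PBS libraries (log2 change -0.80, limma adjusted p = 0.00381).

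Runs of 3 or more alternating heat shock units were found in 5 member windows, those of Hsph1, Dnaja1, Hspa8, Hspd1 and Hspe1, against 0.798% of all windows and 0.447% of those of tested genes. Pairs of units, which these runs contain, were found in 16 of the 55 windows, against 15.9% of all and 11.8% of those of tested genes, among them those of Dnajb1, Bag3, Hspb1, Hspb6 and Hspb8. By call, pairs were in 6 of 18 windows of members called higher, 4 of 11 of those called lower and 5 of 21 of those not called. Runs were in 4 of 18, 0 of 11 and 1 of 21 of these windows. The single run shared by Hspd1 and Hspe1 is counted for both genes. Any bearing on the calls was not tested. The run of Dnaja1 lies after its start. Runs are shown for a gene called higher, Hsph1 (chr12:10427317-10427359 (+ strand)), and for the uncalled Hspa8, which holds a pair of them (chr8:50080286-50080328 (+ strand) and chr8:50080444-50080486 (+ strand)), in GRCr8 with the units in capitals.
Hsph1: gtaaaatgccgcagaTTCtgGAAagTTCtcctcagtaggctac
Hspa8, farther from the start: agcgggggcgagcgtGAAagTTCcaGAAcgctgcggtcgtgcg
Hspa8, nearer to the start: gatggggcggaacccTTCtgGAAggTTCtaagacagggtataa

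Among the cytosolic DnaJ genes, 5 of 20 tested were called higher, 4 lower and 11 did not pass. These shares, 25% higher and 20% lower, lie near the 23.7% and 24.7% of all genes. Dnajc5, the cysteine string protein of secretory vesicles, stood at 52.9 TPM in AdMSC 1, 53.1 TPM in SyMSC 1, 32 TPM in PBS 1 and 31.8 TPM in PBS 2 (log2 change 0.71, SE 0.12, limma adjusted p = 0.00433). Dnajc13, which works on endosomes, stood at 18.6 TPM in AdMSC 1, 16.8 TPM in SyMSC 1, 10.8 TPM in PBS 1 and 9.52 TPM in PBS 2 (log2 change 0.74, SE 0.15, limma adjusted p = 0.00784). The groups of both were apart, and those of Dnajc5 held almost no spread. Smaller rises were those of Dnajb6, an inhibitor of aggregation (0.44), Dnajc9, a histone chaperone (0.38), and Dnaja1, an abundant HSP70 partner (0.38), with limma adjusted p of 0.0382, 0.043 and 0.0441. None of these 3 calls was safe from the loss of a single library (adjusted p in brackets). They ended for Dnajb6 without SyMSC 1 (0.129), PBS 1 (0.0843) or PBS 2 (0.212), for Dnajc9 without AdMSC 1 (0.0835), SyMSC 1 (0.124), PBS 1 (0.163) or PBS 2 (0.176) and for Dnaja1 without AdMSC 1 (0.051), SyMSC 1 (0.131), PBS 1 (0.185) or PBS 2 (0.196). Those lower were Dnajb4 at 14.9 and 12.5 TPM in the injected libraries and 25.9 and 30.2 TPM in the PBS libraries (log2 change -0.98, limma adjusted p = 0.00354), Dnajb5 at 19.98 and 16.2 TPM in the injected libraries and 31.5 and 29.96 TPM in the PBS libraries (-0.74, 0.00865), Dnajb3 at 1.05 and 0.79 TPM in the injected libraries and 2.45 and 2.18 TPM in the PBS libraries (-0.79, 0.0152) and Dnajc17 at 19.8 and 20.4 TPM in the injected libraries and 26.3 and 26.4 TPM in the PBS libraries (-0.38, 0.0468). Calls ended for Dnajb3 without SyMSC 1 (0.0891), PBS 1 (0.0961) or PBS 2 (0.0621) and for Dnajc17 without AdMSC 1 (0.118), SyMSC 1 (0.0971), PBS 1 (0.169) or PBS 2 (0.185).

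Of 20 tested co-chaperones of HSP90 and HSP70, 3 were called higher, 0 lower and 17 did not pass (median change 0.19). The 15% called, all of them higher, lie below the 23.7% of all genes called higher. The 3 were Stip1, the adaptor that hands clients from HSP70 to HSP90 (216 and 168 TPM in the injected libraries and 131 and 115 TPM in the PBS libraries), Ptges3, the p23 co-chaperone (113 and 88.3 TPM in the injected libraries and 70.2 and 63.3 TPM in the PBS libraries), and Fkbp4, an immunophilin of steroid receptors (89.6 and 77.1 TPM in the injected libraries and 62.9 and 62.7 TPM in the PBS libraries). Their changes were 0.63, 0.57 and 0.40 (limma adjusted p = 0.0216, 0.0258 and 0.0458). Calls ended for Stip1 without AdMSC 1 (0.067) or PBS 2 (0.109), for Ptges3 without AdMSC 1 (0.0796), PBS 1 (0.0551) or PBS 2 (0.124) and for Fkbp4 without AdMSC 1 (0.144), PBS 1 (0.169) or PBS 2 (0.18). At an unadjusted p under 0.05 Bag2 was lower (16.2 and 11.2 TPM in the injected libraries and 21.5 and 18.6 TPM in the PBS libraries, limma adjusted p = 0.065), and it was called without AdMSC 1 (0.02) or with the title word as a block (0.0369).

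In the cytosolic chaperonin, the barrel that folds actin and tubulin, and the prefoldin that feeds it, 8 of 14 genes were called higher, 2 lower and 4 did not pass (median change 0.42), or 57.1% higher and 14.3% lower, against 23.7% and 24.7% of all genes. The 2 lower were the prefoldin subunits Pfdn1 and Pfdn5 (limma adjusted p = 0.0493 and 0.037). The chaperonin subunit Cct6a stood at 81 TPM in AdMSC 1, 69.9 TPM in SyMSC 1, 38 TPM in PBS 1 and 39.4 TPM in PBS 2 (log2 change 0.94, SE 0.13, limma adjusted p = 0.0025), beside Cct8 (0.71, 0.00855), Tcp1 (0.59, 0.0208) and the prefoldin Pfdn6 (0.55, 0.0124), given as log2 changes and limma adjusted p. Calls ended for Tcp1 without AdMSC 1 (0.0612), PBS 1 (0.0574) or PBS 2 (0.0991), for Pfdn6 without PBS 1 (0.0765) or PBS 2 (0.0631), for Pfdn1 without SyMSC 1 (0.166), PBS 1 (0.0761) or PBS 2 (0.261) and for Pfdn5 without AdMSC 1 (0.0997), SyMSC 1 (0.0603), PBS 1 (0.13) or PBS 2 (0.215).

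**Figure D3:**
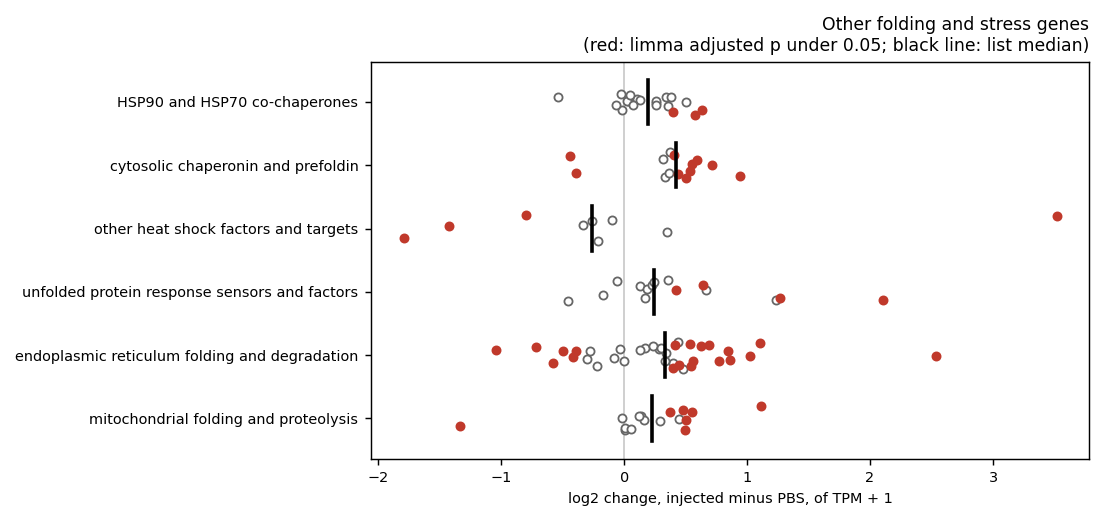
Log2 changes of the tested genes of 6 related lists, 1 point per gene, red for a limma adjusted p under 0.05, with a black line at the list median. The medians of the 5 lists other than heat shock factors and targets lie above 0, and Hmox1 stands alone at the far right of its list.

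Beside the rises of some members in each of the 3 compartments, genes of dividing cells were higher, with 8 of 8 called. Their sum was 476 and 397 TPM in the injected libraries against 147 and 113 TPM in the PBS libraries. Neutrophil genes were called higher in 5 of 8 cases, with a sum of 2303 and 4032 TPM in the injected libraries against 243 and 95.1 TPM in the PBS libraries. Genes of T and NK cells were called higher in 4 of 7 cases and lower in 1. Their sum was 335 and 384 TPM in the injected libraries against 208 and 234 TPM in the PBS libraries. Within it Cd8a stood at 109 and 126 TPM in the injected libraries against 4.19 and 4.72 TPM in the PBS libraries. Cd4, the gene called lower, stood at 119 and 125 TPM against 174 and 205 TPM in the same order. Adipocyte genes were called lower in 3 of 6 cases, and the sum of the 7 listed was 249.4 and 288 TPM in the injected libraries against 568 and 1549 TPM in the PBS libraries, highest in PBS 2. Of 5 erythroid genes 0 were called, and their sum was 5309 and 11233 TPM in the injected libraries against 21697 and 7665 TPM in the PBS libraries, highest in PBS 1. The part of these cells, and of the macrophage genes given above, in the chaperone levels was not tested. Hmox1, the heme oxygenase that macrophages and stressed cells induce, stood at 1100.0 TPM in AdMSC 1, 809 TPM in SyMSC 1, 77.2 TPM in PBS 1 and 85.9 TPM in PBS 2 (log2 change 3.52, SE 0.18, limma adjusted p = 0.000239).

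All 5 small heat shock proteins that passed the filter were called lower, in every case with both injected libraries below both PBS libraries. Of all tested genes, 24.7% were called lower and 39.4% had both injected libraries below both PBS libraries. Hspb1, which encodes HSP27, an actin-associated chaperone, stood at 135 TPM in AdMSC 1, 127 TPM in SyMSC 1, 349 TPM in PBS 1 and 556 TPM in PBS 2 (log2 change -1.74, SE 0.23, limma adjusted p = 0.00218). PBS 2 held more than PBS 1, while the injected libraries were close. Hspb6, a partner of HSP27 in smooth and striated muscle, stood at 24.1 TPM in AdMSC 1, 18.3 TPM in SyMSC 1, 97.5 TPM in PBS 1 and 79.4 TPM in PBS 2 (log2 change -2.02, SE 0.18, limma adjusted p = 0.000632). Hspb7, a heart and skeletal muscle member, stood at 1.31 TPM in AdMSC 1, 2.74 TPM in SyMSC 1, 15.2 TPM in PBS 1 and 16.4 TPM in PBS 2 (log2 change -2.52, SE 0.25, limma adjusted p = 0.000918). Hspb2, known from the same muscles, stood at 2.71 TPM in AdMSC 1, 1.24 TPM in SyMSC 1, 12.4 TPM in PBS 1 and 17 TPM in PBS 2 (log2 change -2.43, SE 0.29, limma adjusted p = 0.00162), with the SyMSC library the lower of the injected pair. Hspb7 and Hspb2 had the largest falls of any member, by amounts that differ by less than their SEs, and Hspb2 fell further than Hspb7 without AdMSC 1 (-2.79 against -2.17) or PBS 1 (-2.65 against -2.57). Hspb8, the BAG3 partner, fell by less, from 91.5 and 73.9 to 59.6 and 37.6 TPM (log2 change -0.78, SE 0.24, limma adjusted p = 0.0398). Its call ended without SyMSC 1 (0.094), PBS 1 (0.156) or PBS 2 (0.0595). Hspb3 did not pass the filter, at 0.04 TPM in AdMSC 1, 0.1 TPM in PBS 1 and 0.11 TPM in PBS 2, and it was listed at 0 in SyMSC 1.

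Cryab, the small heat shock protein αB-crystallin, which the symbol rule does not take in, stood at 5.75 TPM in AdMSC 1, 9.87 TPM in SyMSC 1, 27.7 TPM in PBS 1 and 29.8 TPM in PBS 2 (log2 change -1.79, SE 0.24, limma adjusted p = 0.00226). It lies next to Hspb2 in mammalian genomes, and the sources used here do not say whether the counting used strand. Most listed genes of cells known to hold these proteins were lower in the same libraries. Mural and smooth muscle genes were called lower in 7 of 7 cases, with a sum of 785 and 617 TPM in the injected libraries against 2975 and 3897 TPM in the PBS libraries. Of 10 tested skeletal muscle genes 6 were called lower and 4 did not pass, and the sum of the 12 listed was 276 and 314 TPM in the injected libraries against 2759 and 1170.0 TPM in the PBS libraries, so that the PBS libraries differed from each other more than the injected ones did. The muscle genes Myh2 and Myh7 were listed but under the filter, and went the other way. Myh2 stood at 1.3 and 0.91 TPM in the injected libraries and 0.13 and 0.12 TPM in the PBS libraries. Myh7 stood at 0.93 and 1.88 TPM in the injected libraries and 0.19 and 0.67 TPM in the PBS libraries. The part of mural, muscle and fibroblast cells in the fall of the small heat shock proteins was not tested.

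**Figure D4:**
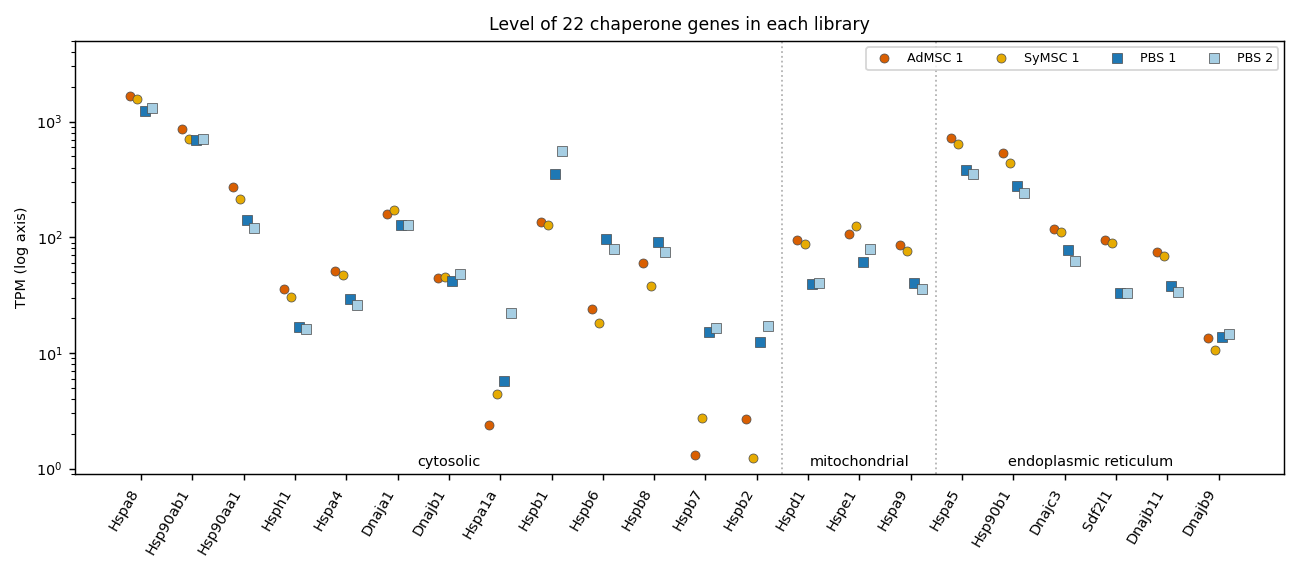
TPM of 22 chaperone genes on a log axis, with circles for the injected libraries, squares for the PBS libraries and dotted lines between the compartments. Squares lie above circles for Hspb1, Hspb6, Hspb8, Hspb7 and Hspb2, and below them for the 3 mitochondrial genes shown and for the endoplasmic reticulum genes shown other than Dnajb9.

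Other HSP70 relatives were lower as well. Hspa2, known for its role in sperm formation but also found at low level elsewhere, stood at 4.66 TPM in AdMSC 1, 3.92 TPM in SyMSC 1, 10.3 TPM in PBS 1 and 10.7 TPM in PBS 2 (log2 change -1.12, SE 0.16, limma adjusted p = 0.00283). Hspa12b, a distant HSP70 relative of endothelial cells, stood at 5.8 TPM in AdMSC 1, 4.25 TPM in SyMSC 1, 18 TPM in PBS 1 and 20.6 TPM in PBS 2 (log2 change -1.76, SE 0.18, limma adjusted p = 0.000991). Its relative Hspa12a stood at 2.11 and 1.48 TPM in the injected libraries and 4.71 and 3.65 TPM in the PBS libraries (log2 change -0.89, limma adjusted p = 0.0165, no longer called without SyMSC 1 (0.0822) or PBS 1 (0.0835)). Endothelial genes were called lower in 7 of 7 cases, with a sum of 168 and 124 TPM in the injected libraries against 539.7 and 599.9 TPM in the PBS libraries. Their part in the level of Hspa12b was not tested. Hspb11, despite its symbol a subunit of the transport machinery of cilia, stood at 11.1 TPM in AdMSC 1, 7.67 TPM in SyMSC 1, 16.2 TPM in PBS 1 and 18.6 TPM in PBS 2 (log2 change -0.84, limma adjusted p = 0.0152, no longer called without PBS 2 (0.0591)).

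Each cell source was next set against the PBS library that shares its title word, 1 library against 1 and so without a test. Members counted here differed by 2-fold or more in TPM + 1, with 5 TPM or more on the higher side. AdMSC 1 against PBS 1 listed 10 of 64 members (15.6%, against 18.9% of all tested genes), with Sdf2l1, Hspd1, Hspa9 and Hsph1 higher and Hspb7, Hspb6, Hspb2, Hspa12b, Hspb1 and Hspa2 lower. SyMSC 1 against PBS 2 listed 14 (21.9%, against 22.6%), with Sdf2l1, Hspd1, Hspa9, Dnajc16 and Dnajb11 higher and Hspb2, Hspb7, Hspb1, Hspa1a, Hspb6, Hspa12b, Hspa2, Dnajb4 and Hspb11 lower. Both shares lie near the background. With a limit of 1.5-fold both lay above it, at 39.1% against 34.1% for the AdMSC pair and 46.9% against 37.2% for the SyMSC pair. The 3 highest members were the same in both pairs, Sdf2l1 (1.48 and 1.42 on the log2 scale, AdMSC pair first), Hspd1 (1.23 and 1.08) and Hspa9 (1.07 and 1.08). Hspb2 fell further in the SyMSC pair (-1.85 and -3.01) and Hspb7 in the AdMSC pair (-2.81 and -2.22), differences that could not be tested.

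Between the cell sources, SyMSC 1 against AdMSC 1, 0 of 64 members reached this limit, where 1.65% of all tested genes did. The widest gaps were those of Hspb2 (-0.73 on the log2 scale), Hspb7 (0.70), Hspa1a (0.67) and Hspb8 (-0.65), which are named here after their values were seen. Between the PBS libraries, PBS 2 against PBS 1, 1 member reached it, Hspa1a (1.79), or 1.56% of 64, where 1.7% of all tested genes did.

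**Figure D5:**
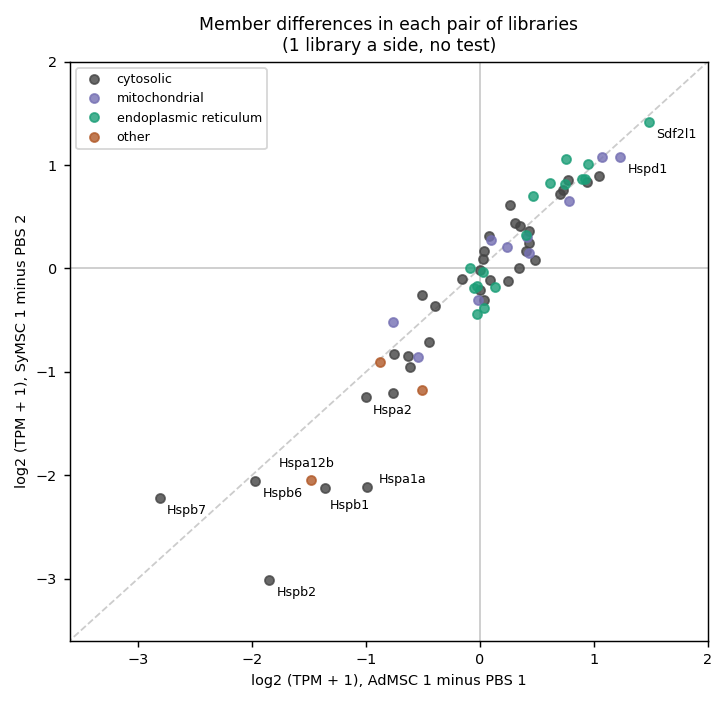
Difference of log2(TPM + 1) for the 64 tested members, AdMSC 1 minus PBS 1 on the horizontal axis and SyMSC 1 minus PBS 2 on the vertical axis, with a dashed line where both are equal. Sdf2l1 and Hspd1 lie at the upper right, the small heat shock proteins at the lower left, and Hspa1a lies below the line.

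The 5 members under the filter were Dnajc6, Hspa1l, Hspa4l, Dnajb13 and Hspb3. Just outside it lay Hspa1l, with a second highest value of 0.89 TPM, and Dnajc6 with 0.91 TPM. Just inside lay Dnajc28 with 1.72 TPM and Dnajb3 with 2.18 TPM.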

How the data were processed

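The deposited table holds TPM for 4 libraries and 17899 rat genes, per the file header. Each column sums to 1000000 within rounding. The submitters' processing notes name HISAT2 2.0.4 and the build Rnor_6.0. The sources used here do not name the counting tool or the use of strand. Per the labels' protocols, polyadenylated RNA was selected on oligo-dT, the second strand was marked with dUTP, and sequencing used a BGISEQ-500. TPM keeps no depth, so the depth of each library and the limit behind a low value are unknown, and no counting interval is given.

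Values were taken as log2(TPM + 1). The 13371 genes past the filter of 1 TPM in 2 libraries entered 1 fit with limma 3.58.1 (R 4.3.3, trend and robust). It set the 2 injected libraries against the 2 PBS libraries, leaving 2 residual degrees of freedom, and p-values were adjusted over all genes by Benjamini-Hochberg. No exact permutation test was used, since 2 libraries against 2 cannot go below p = 0.333. For a repeated symbol the row of higher mean was used. No sample column was left unused.

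Members and lists were chosen with earlier results of these data known. Named were a fixed set of principal chaperones, the small heat shock proteins and, in each compartment, up to 4 called members that rose most and up to 4 that fell most. For each related list up to 4 called genes were named, and for each library pair the 3 highest and 3 lowest members. The other called members, and uncalled members outside this rule, were named after their values were seen. Promoter windows are RefSeq's for GRCr8, matched by gene ID. 14 members had none at hand: Dnaja2, Dnajb4, Dnajc2, Dnajc8, Dnajc11, Dnajc12, Dnajc15, Dnajc22, Dnajc24, Hsf1, Hsp90aa1, Hspa12a, Hspb2 and Hspb11. Alternatives were median-ratio (RLE) and upper quartile scaling, no filter, a pseudocount of 0.1, the title word as a block, limma without its trend and robust options, each library left out in turn, and other limits for the library pairs.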

Additional observations from a re-analysis of the deposited data

How the results depend on the processing

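The number of members called higher was 19 and ran from 16 to 23 under other scalings, filters, pseudocounts and limma options, and from 14 to 16 with 1 library left out. The number called lower was 15, ran from 14 to 17 under the former settings, and from 9 to 14 with 1 library left out, where 1 residual degree of freedom is left and the lone library of a side is assumed to vary like the other side. Under the 10 alternatives 21 members stayed called and 0 called members changed sign. With 1 library left out the median change ran from -0.07 to 0.05 for cytosolic, 0.24 to 0.34 for mitochondrial and 0.40 to 0.55 for endoplasmic reticulum members. Among the genes named, signs turned for genes that were not called. With 1 library left out these were Dnajb1 (-0.11 to 0.0892), Hsf1 (-0.31 to 0.04), Dnajc10 (-0.26 to 0.0723), Dnajb12 (-0.0286 to 0.0218), Dnajb14 (-0.14 to 0.0514), Dnajc1 (-0.13 to 0.084), Atf4 (-0.20 to 0.0714) and Prg4 (-0.65 to 0.12), given as the range of the log2 change, and under RLE scaling Dnajb1 (0.0335), Dnajb12 (0.042) and Dnajc1 (0.0219). Without AdMSC 1 Prg4 was called lower (adjusted p = 0.0309). RLE scaling called Hspa8 (adjusted p = 0.0381), Dnajc11 (0.0287), Dnajc22 (0.0381) and Hspa14 (0.0351) higher and Dnajc27 (0.0474) lower, and ended the call of Dnajc17. Testing without a filter called Hspa1l and Dnajc6 lower, which are under the filter in the main fit. Both testing without a filter and limma without its trend and robust options ended the calls of Dnajb6, Dnajc17, Dnaja1, Hspb8 and Dnajc9. Of genes in the related lists, testing without a filter ended the calls of Ptges3, Fkbp4 and Cdnf, limma without those options ended those of Fkbp4 and Pfdn5, and RLE scaling that of Pfdn5. Pfdn1 was called in 1 of the 10 alternatives, without AdMSC 1. With a limit of 1.5-fold, the library pairs listed 25 members or 39.1% (AdMSC 1 against PBS 1, with 34.1% of all genes), 30 or 46.9% (SyMSC 1 against PBS 2, 37.2%), 1 or 1.56% (SyMSC 1 against AdMSC 1, 5.68%) and 2 or 3.12% (PBS 2 against PBS 1, 4.58%).

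With the title word as a replicate block, limma called 19 members higher and 17 lower. It ended the call of Dnajb6 (adjusted p = 0.0536) and added Hspa1a (0.0218), Dnajc27 (0.0471) and Hspa14 (0.0493). The labels do not say that a shared word marks paired tissue, and the deviations of same-word libraries from their group means correlated at 0.117 over 13371 genes.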

Other observations

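The balance between the stress-inducible and the constitutive HSP90 of the cytosol differed between the groups. The ratio of Hsp90aa1 to Hsp90ab1 in TPM was 0.313 for AdMSC 1 and 0.302 for SyMSC 1, against 0.205 for PBS 1 and 0.169 for PBS 2. The comparison was chosen after the values were seen and was not tested.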
